A study of Arabidopsis thaliana with 59 samples.

Results

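Transcript levels of 6 genes that act in stomatal guard cells were followed in rosette leaves of Arabidopsis thaliana: the ion channel genes KAT1 (AT5G46240), KAT2 (AT4G18290), GORK (AT5G37500), SLAC1 (AT1G12480) and QUAC1 (AT4G17970), and the transcription factor gene MYB60 (AT1G08810). They were chosen by locus, as genes known for their work in guard cells, and all 6 were found among the 20728 loci of the deposited array table. The plants came from 10 spring annual accessions, which are inbred natural lines, each grown singly in pots of ceramic rooting medium under short days. Wet pots were held near 90% of their water, and dry pots were lowered step by step to about 50% by day 5. The wet and the dry groups of Bur-0, CIBC-17, Col, HR-5, Ler, NFA-10, SQ-8, Ts-1 and Ws-2 held 3 arrays each, as did KNOX-18 wet, while KNOX-18 dry held 2, which gave 30 wet and 29 dry arrays. Whether an array held 1 plant or a pool is not given in the sources used here.

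A stoma opens when its pair of guard cells takes up potassium and swells, and it closes when the cells release potassium and anions and lose turgor. KAT1 and KAT2 are voltage-gated Shaker channels that carry potassium inward, and GORK is the Shaker channel that carries it outward. SLAC1 carries the slow anion current and QUAC1, an ALMT family member, the rapid one, both activated during closure by the hormone abscisic acid (ABA), and MYB60 is an R2R3 MYB factor expressed in guard cells and needed for full opening. Drying soil raises ABA in leaves, and ABA controls these channels largely through phosphorylation of the proteins, which an array does not measure.

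Values are on a log2 scale with 1 value per locus and array, so a difference of 1 is a doubling of the signal and levels of different loci cannot be compared with each other. Array medians lay between 5.50 and 5.62. The means of the 6 genes over all arrays stood between the 26.2 percentile of all loci (MYB60) and the 44.6 percentile (GORK). The table holds no detection calls, so whether a gene stood above background on a given array was not tested. Markers were read against the leaf label: RCA, the Rubisco activase gene of mesophyll, ran from 12.4 to 13.7 over all arrays, while the mean of 5 root markers ran from 4.19 to 4.58. Single root markers differed: IRT1 and PYK10 stood at the 8 percentile of all loci and RBOHC at 25.9. COBL9 (37) and EXPA7 (42.1) lay within the span of the 6 genes. Since levels of different loci cannot be compared, these percentiles do not rank the 6 genes against root markers. How near the 6 genes lay to background was not tested. Of the 59 arrays 58 correlated best with the other arrays of their own accession, after watering and replicate number were removed. Ler wet 3 correlated best with Col, although it was nearer to the other Ler arrays at 76 of 100 loci that separate Ler from Col, against 91 to 99 for the other arrays of these accessions. Col wet 3 carries the stock number of Ws-2 in its labels, but was nearer to the other Col arrays at 91 of 100 loci that separate Col from Ws-2. Over all loci, as deviations from each locus mean, it correlated most with Ler wet 3 (r = 0.693), next with Col wet 2 (0.647), and at most at 0.341 with a Ws-2 array. Both arrays were kept, and calls of the named genes that changed without either of them are given beside the results.

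The first comparison was dry against wet leaves on average over the 10 accessions. KAT1 and GORK rose, by 1.31-fold and 1.13-fold, and KAT2, SLAC1, QUAC1 and MYB60 did not pass the test, an adjusted p of 0.05 from limma over all loci. The count was thus 2 of 6 genes higher and 0 lower, in a table where 15.5% of all loci were called higher in dry leaves and 13.8% lower. The median difference of the 6 genes was 0.10 on the log2 scale, beside -0.00326 over all loci. In whole leaves a change in the share of guard cells and a change in the RNA of each guard cell cannot be told apart.

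**Figure D1:**
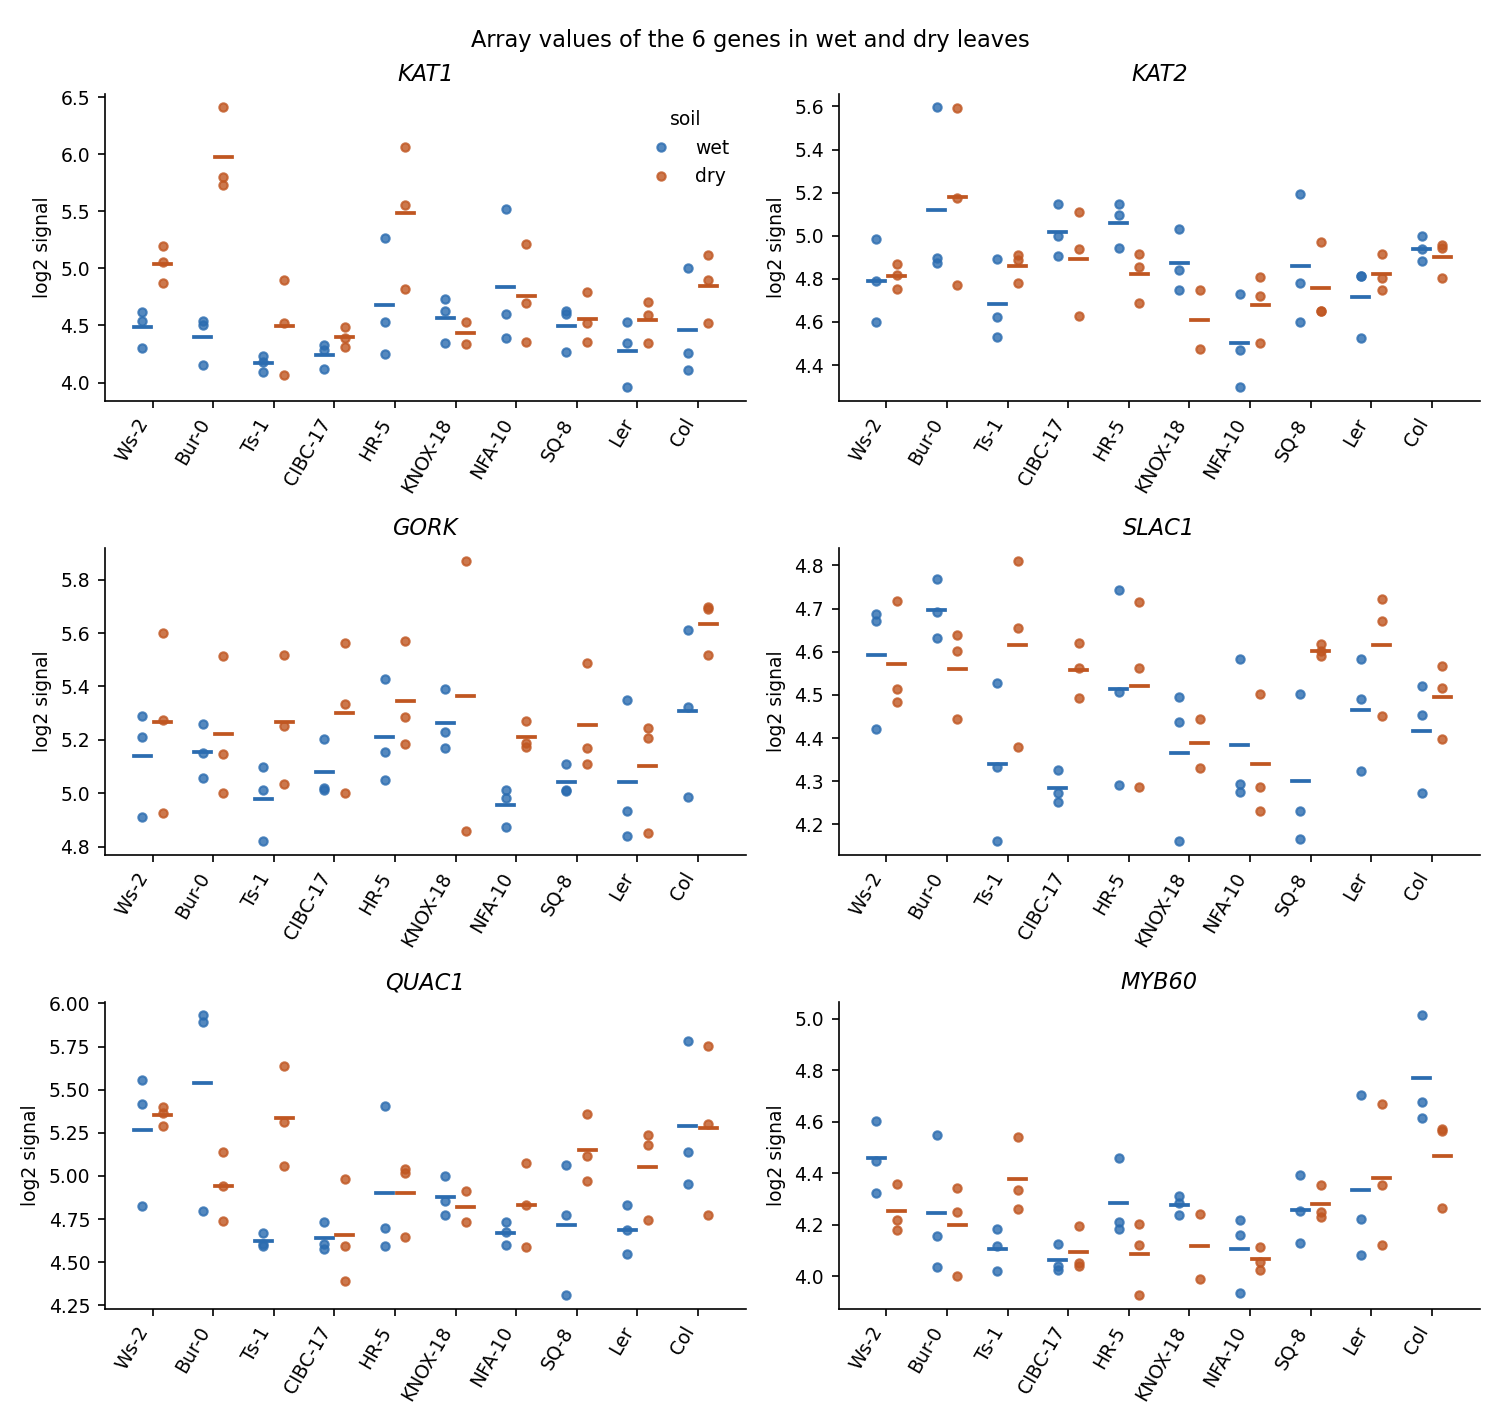
Log2 signal of each gene (vertical axes, a separate range for each gene) in the 10 accessions (horizontal axes); every point is 1 array, blue for wet and orange for dry soil, and bars are group means of 3 arrays (2 for KNOX-18 dry). The dry Bur-0 arrays of KAT1, at 5.73 to 6.41, lie above every wet array of that gene, and for most other genes and accessions the wet and dry points overlap.

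Of the inward potassium channels, KAT1 ran from 3.96 (Ler wet 3) through a median of 4.37 to 5.52 (NFA-10 wet 3) in wet leaves. In dry leaves it ran from 4.07 (Ts-1 dry 2) through 4.71 to 6.41 (Bur-0 dry 1). The ranges overlapped, with the highest dry arrays in Bur-0 and HR-5. KAT1 was higher in dry leaves by 0.39 ± 0.09 (SE) on the log2 scale (limma adjusted p = 0.000516), and 8 of 10 accessions had a higher dry mean. With the accession as the unit, the exact two-sided sign-flip test of the 10 differences gave p = 0.0176. Bur-0 supplied much of this mean: without it the difference was 0.26 (adjusted p = 0.0334), and without HR-5 it was 0.35 (adjusted p = 0.00124).

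KAT2, the closest relative of KAT1 among the genes described, behaved otherwise. In wet leaves it ran from 4.30 through 4.88 to 5.60, and in dry leaves from 4.48 through 4.81 to 5.59. The 2 ranges were nearly the same, and both of their highest values were Bur-0 arrays of replicate number 3. The mean difference was -0.023 ± 0.052 with a 95% interval from -0.13 to 0.083 (adjusted p = 0.794), with 5 accessions higher and 5 lower. This interval lies below the 0.39 of KAT1, but the difference between the responses of KAT1 and KAT2 was not tested.

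GORK, the outward potassium channel that lets potassium leave during closure, ran from 4.82 through 5.08 to 5.61 in wet leaves and from 4.85 through 5.25 to 5.87 in dry leaves. The ranges overlapped over most of their length. The dry mean was higher by 0.18 ± 0.06 (limma adjusted p = 0.0186), in 10 of 10 accessions, with an exact sign-flip p of 0.00195, the smallest that 10 differences can give. A dry mean above the wet mean in all 10 accessions was found at 5.93% of all loci. The accession differences of GORK ran from 0.060 in Ler to 0.33 in Col, with an SD over accessions of 0.0948, against 0.505 for KAT1. Each of these GORK differences had an SE of 0.185 (0.207 in KNOX-18). This is larger than that SD, so how alike the accessions responded cannot be read from it. In KNOX-18, where the difference was 0.10 and did not pass (adjusted p = 0.952), the dry arrays read 4.86 and 5.87 and the wet arrays 5.17 to 5.39. Without KNOX-18 dry 3 the mean difference was 0.13 (adjusted p = 0.0715) and the difference in KNOX-18 turned to -0.40, while without the whole accession it was 0.19 (adjusted p = 0.00909). Leaving out 1 array also turned the difference of GORK in Ws-2 (lowest -0.038), Bur-0 (-0.082) and Ler (-0.041).

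Neither anion channel gene passed the test. SLAC1, whose protein is a target of the ABA-activated kinase OST1, ran from 4.16 through 4.45 to 4.77 in wet leaves. In dry leaves it ran from 4.23 through 4.56 to 4.81, and the ranges overlapped almost fully. The mean difference was 0.091 ± 0.038 with a 95% interval from 0.014 to 0.17, and it missed the threshold (adjusted p = 0.069), with 7 of 10 accessions higher and an exact sign-flip p of 0.102. Among the alternatives that brought it past the threshold were quantile normalization (0.095, adjusted p = 0.048) and leaving out the accession Bur-0 (0.12, adjusted p = 0.0351). QUAC1 ran from 4.31 through 4.77 to 5.93 in wet leaves and from 4.39 through 5.04 to 5.75 in dry leaves. Its dry median was the higher of the pair, but its highest array was Bur-0 wet 1. The mean difference of QUAC1 was 0.11 ± 0.08 with a 95% interval from -0.047 to 0.27 (adjusted p = 0.312), with 7 of 10 accessions higher and an exact sign-flip p of 0.344.

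MYB60 ran from 3.94 through 4.22 to 5.01 in wet leaves and from 3.93 through 4.23 to 4.67 in dry leaves. The medians were almost equal, and the top of the wet range was set by Col. The mean difference was -0.059 ± 0.043 with a 95% interval from -0.15 to 0.028 (adjusted p = 0.336), with 4 accessions higher and 6 lower (exact sign-flip p = 0.301). A fall of the MYB60 signal larger than 0.15 on the log2 scale thus lay outside the interval. Whether background narrowed this low signal was not tested, so the interval sets no limit on a fall of the transcript itself.

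**Figure D2:**
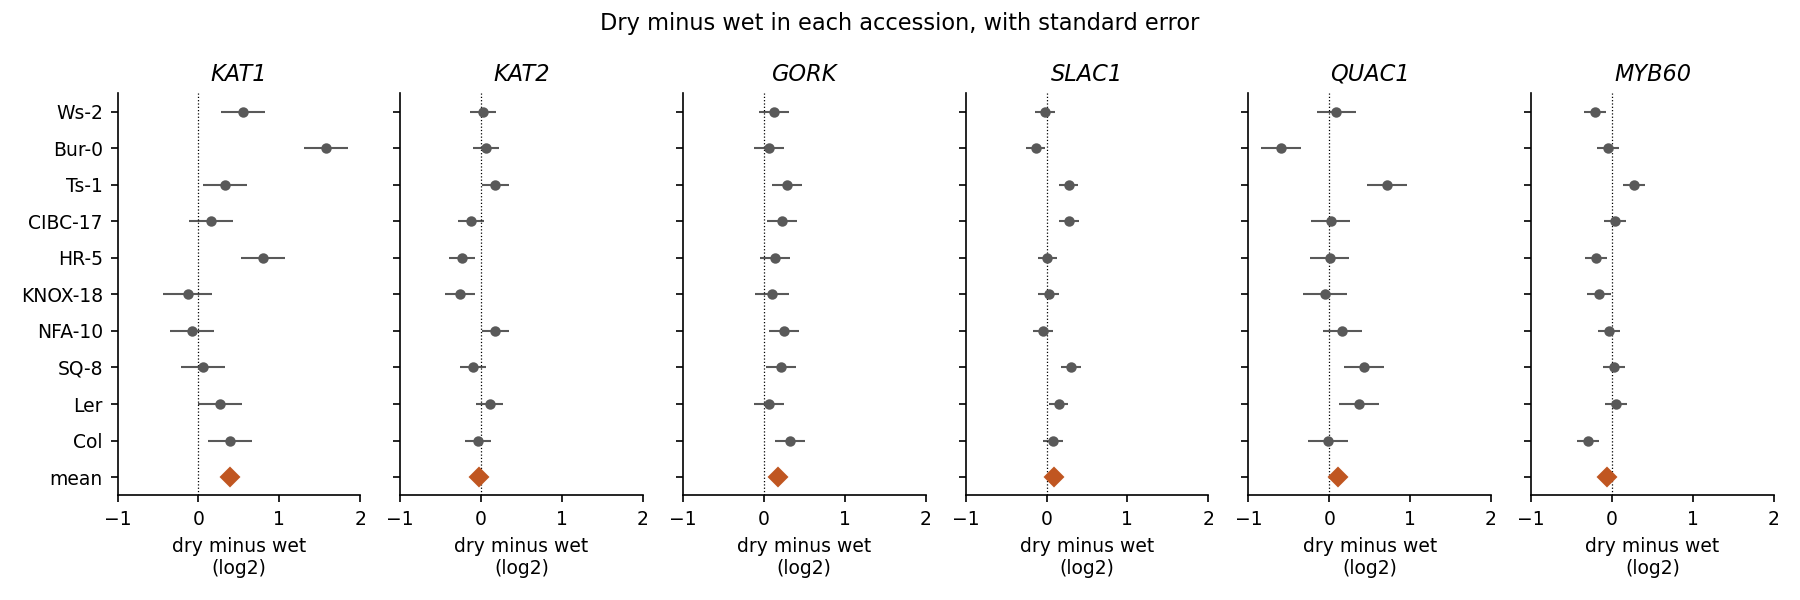
Dry minus wet on the log2 scale (horizontal axes) of each gene in each accession (rows), with standard errors of the limma fit as bars; orange diamonds are the means over the 10 accessions. KAT1 in Bur-0 at 1.58 lies farthest from 0, GORK points lie to the right of 0 in all 10 rows, and QUAC1 runs from -0.60 in Bur-0 to 0.71 in Ts-1.

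The second comparison asked whether the response to drying differed among accessions. KAT1 in Bur-0 gave the largest change of the 60 pairs of gene and accession and the only one that passed the test within an accession. Its wet Bur-0 arrays read 4.54, 4.15 and 4.50, and its dry arrays 6.41, 5.73 and 5.80, for replicate numbers 1, 2 and 3. The groups did not overlap, and every dry Bur-0 array was above every wet array of the other 9 accessions as well. The difference was 1.58 ± 0.27, a 3.00-fold rise (limma adjusted p = 0.00105). Drying called 2.72% of all loci in Bur-0, in either direction, and from 0.0627% to 4.95% in the 10 accessions. With only the Bur-0 arrays in the fit the same difference did not pass (adjusted p = 0.133).

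HR-5 was next for KAT1, at 0.80 ± 0.27 (adjusted p = 0.179). Its wet arrays read 5.27, 4.53 and 4.25 and its dry arrays 4.82, 6.07 and 5.56, so the groups overlapped and replicate number 1 went the other way. The remaining differences of KAT1 were 0.55 in Ws-2, 0.39 in Col, 0.33 in Ts-1, 0.27 in Ler, 0.15 in CIBC-17, 0.060 in SQ-8, -0.084 in NFA-10 and -0.13 in KNOX-18. In Ws-2 the dry arrays (4.87 to 5.20) all lay above the wet ones (4.30 to 4.62), although that difference did not pass (adjusted p = 0.416).

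The response of KAT1 in Bur-0 exceeded the mean response of the other 9 accessions by 1.32 ± 0.29 (limma adjusted p = 0.0325), a contrast that called 0.207% of all loci. That call was lost without Bur-0 wet 1 (adjusted p = 0.126), Bur-0 dry 1 (0.194), Bur-0 wet 2 (0.061) or Bur-0 dry 2 (0.0815), with differences from 1.11 to 1.45. The F test over all 10 responses, which called 0.270% of all loci, did not pass for KAT1 (adjusted p = 0.247), nor for KAT2 (0.961), GORK (1), SLAC1 (0.755), QUAC1 (0.624) or MYB60 (0.792).

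QUAC1 had the second widest range of responses, with an SD over accessions of 0.35. Its wet Bur-0 arrays read 5.93, 4.79 and 5.89 and its dry arrays 4.74, 5.14 and 4.94, a difference of -0.60 ± 0.25 that did not pass (adjusted p = 0.175). Replicate number 2 was low among the wet arrays, and without it the difference was -0.97 (adjusted p = 0.0318). In Ts-1 the wet arrays of QUAC1 (4.59 to 4.67) all lay below the dry arrays (5.06 to 5.64), with a difference of 0.71 ± 0.25 (adjusted p = 0.254). In Bur-0, therefore, KAT1 was higher and QUAC1 had a lower mean in dry leaves, the latter without passing.

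For SLAC1 the widest differences were 0.30 ± 0.12 in SQ-8 (adjusted p = 0.139), 0.28 in CIBC-17 and 0.27 in Ts-1, and the lowest was -0.14 in Bur-0. In SQ-8 and CIBC-17 all dry arrays of SLAC1 lay above all wet arrays. KAT2 ran from -0.26 in KNOX-18 to 0.18 in Ts-1, and all of its dry arrays lay below the wet ones in KNOX-18 and HR-5. MYB60 ran from -0.30 ± 0.13 in Col (adjusted p = 0.447) to 0.27 ± 0.13 in Ts-1 (adjusted p = 0.508), and its groups did not overlap in either. Over the 60 pairs of gene and accession, all dry arrays were above all wet arrays in 7 and below in 3. Among all loci and accessions such pairs made up 9.09% and 8.71%, so these counts are near the background and say nothing particular of the 6 genes.

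The third comparison concerned standing differences among accessions, as means over both watering levels. Accession means differed by the F test, which called 41.3% of all loci, for KAT1 (limma adjusted p = 0.00104), KAT2 (0.0105), QUAC1 (0.0108) and MYB60 (0.000496), but not for GORK (0.215) or SLAC1 (0.12). In none of the 6 orders did an accession differ from its neighbour beyond the threshold. The nearest to it was MYB60 in Col over Ler, at 0.26 ± 0.10 (adjusted p = 0.0704), a pair that Ler wet 3 made neighbours.

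MYB60 was highest in Col, at 4.62, followed by Ler at 4.36, Ws-2 at 4.36, SQ-8 at 4.27, Ts-1 at 4.24, Bur-0 at 4.22, KNOX-18 at 4.20, HR-5 at 4.18, NFA-10 at 4.09 and CIBC-17 at 4.08. Without Ler wet 3 the mean of Ler was 4.27, in rank 4 behind Ws-2 and SQ-8. Col then exceeded Ler by 0.35 ± 0.09 (limma adjusted p = 0.00686), while its new neighbour Ws-2 was 0.26 ± 0.09 lower (adjusted p = 0.07). The wet Col arrays read 4.62, 4.68 and 5.01 and the dry ones 4.56, 4.57 and 4.27. Apart from Col dry 3, the Col arrays stood near or above the top of the other accessions, in which the highest array was Ler wet 3 at 4.71. Col exceeded the mean of the other 9 accessions by 0.40 ± 0.07 (limma adjusted p = 0.000135), a contrast that called 12.4% of all loci, and by 0.34 without Col wet 3 (adjusted p = 0.00374).

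KAT1 was highest in Bur-0 (5.19) and HR-5 (5.08), then came NFA-10 (4.80), Ws-2 (4.76), Col (4.65), SQ-8 (4.53), KNOX-18 (4.50), Ler (4.41), Ts-1 (4.33) and CIBC-17 (4.32). Bur-0 exceeded the other 9 by 0.59 ± 0.14 (adjusted p = 0.00354) and HR-5 by 0.47 ± 0.14 (adjusted p = 0.0271), where these contrasts called 13.7% and 9.65% of all loci. In wet leaves alone Bur-0 stood at 4.40 ± 0.21 (SD, n = 3), inside the range of the other accessions, so its high mean came from its dry arrays. The call for HR-5 was lost without HR-5 wet 1 (0.33, adjusted p = 0.219), HR-5 dry 2 (0.33, 0.239) or HR-5 dry 3 (0.45, 0.0835).

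KAT2 was also highest in Bur-0 (5.15), ahead of CIBC-17 (4.96), HR-5 (4.94), Col (4.92), SQ-8 (4.81), Ws-2 (4.80), Ts-1 (4.77), Ler (4.77), KNOX-18 (4.74) and NFA-10 (4.59). Bur-0 exceeded the other 9 by 0.34 ± 0.09 (adjusted p = 0.00565), and NFA-10 was lower than the other 9, at -0.29 ± 0.09 (adjusted p = 0.0405), a contrast that called 5.53% of all loci. Unlike KAT1, KAT2 had its highest wet mean in Bur-0 (5.12), but this rested on Bur-0 wet 3. The wet Bur-0 arrays read 4.90, 4.87 and 5.60, beside a median of 4.88 over all wet arrays. The dry ones read 5.17, 4.77 and 5.59, beside a dry median of 4.81. The replicate number 3 arrays carried the excess of Bur-0 over the other 9. It was 0.22 without Bur-0 wet 3 (adjusted p = 0.0841) and 0.24 without Bur-0 dry 3 (adjusted p = 0.0835). The call for NFA-10 was lost without any 1 of NFA-10 wet 1, dry 1, wet 2 or dry 2 (adjusted p from 0.0836 to 0.19).

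QUAC1 was highest in Ws-2 (5.31), Col (5.29) and Bur-0 (5.24), followed by Ts-1 (4.98), SQ-8 (4.93), HR-5 (4.90), Ler (4.87), KNOX-18 (4.85), NFA-10 (4.75) and CIBC-17 (4.65). No accession of QUAC1 passed against the other 9, where Col came nearest (0.34 ± 0.13, adjusted p = 0.0759). GORK ran from 5.07 in Ler through NFA-10 (5.08), Ts-1 (5.12), SQ-8 (5.15), Bur-0 (5.19), CIBC-17 (5.19), Ws-2 (5.20), HR-5 (5.28) and KNOX-18 (5.31) to Col (5.47). Col exceeded the other 9 by 0.29 ± 0.10 for GORK (adjusted p = 0.0411), a call lost without Col dry 1, wet 2, dry 2 or wet 3. The last of these left 0.22 (adjusted p = 0.23). SLAC1 had the narrowest order, from 4.36 in NFA-10 through KNOX-18 (4.38), CIBC-17 (4.42), SQ-8 (4.45), Col (4.46), Ts-1 (4.48), HR-5 (4.52), Ler (4.54) and Ws-2 (4.58) to Bur-0 (4.63), and none passed.

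The labels number the replicates 1 to 3 in every group, and the number moved many loci: with the groups in the fit it called 30.0% of them, though none of the 6 genes (adjusted p from 0.0551 for GORK to 0.591 for QUAC1). Clock genes differed with it. A clock score, the mean of the morning genes CCA1, LHY and RVE8 minus that of the evening genes TOC1, GI and ELF4, averaged 3.29 in wet and 3.07 in dry arrays of number 1. It was 1.70 and 1.298 for number 2, and -0.030 and -0.79 for number 3. In 9 of 10 accessions dry leaves had the lower score, and the mean difference was -0.47. What the number marks is not stated in the labels. With the score as a covariate KAT1 differed by 0.41 (adjusted p = 0.000319) and GORK by 0.15 (adjusted p = 0.0269).

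Within replicate numbers 1, 2 and 3 taken alone, KAT1 was higher in dry leaves by 0.26, 0.52 and 0.44. GORK differed by 0.022, 0.24 and 0.29, so arrays of number 1 showed almost none of its rise. SLAC1 gave 0.091, 0.027 and 0.17, and QUAC1 0.050, 0.27 and 0.033, positive in each. KAT2 gave 0.006, 0.021 and -0.070, and MYB60 -0.059, -0.026 and -0.077. None of these passed within a number, where each accession had 1 wet and 1 dry array, except that KNOX-18 had no dry array of number 2.

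**Figure D3:**
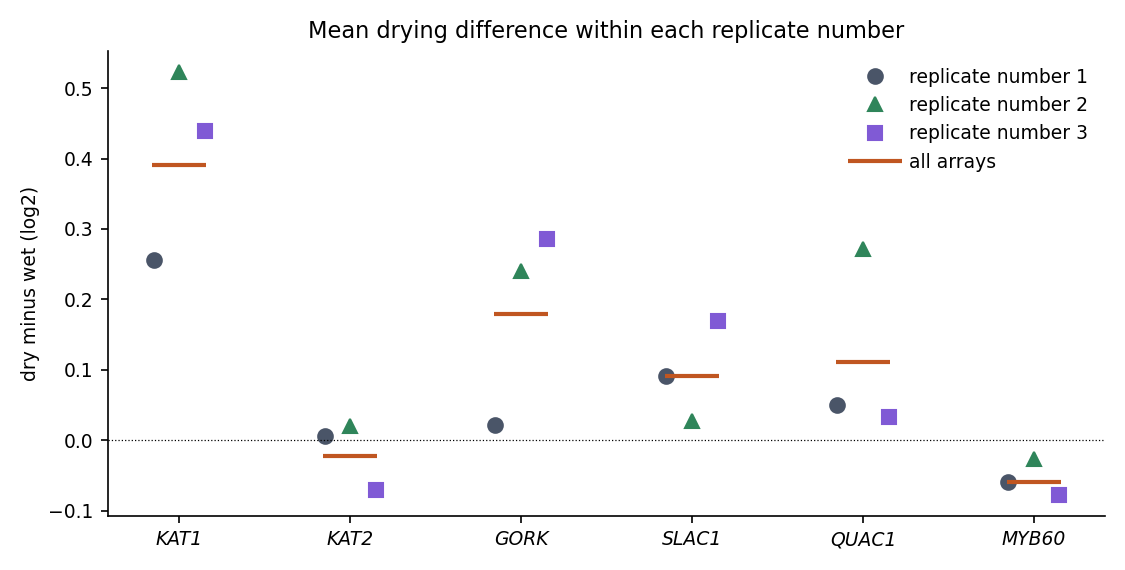
Mean dry minus wet on the log2 scale (vertical axis) of each gene (horizontal axis) within replicate number 1 (circles), 2 (triangles) and 3 (squares), with the value from all arrays as an orange bar. KAT1 lies above 0 for each number (0.26, 0.52 and 0.44), and GORK lies near 0 for number 1 (0.022).

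Among themselves the 6 genes formed 15 pairs, described here by correlations over the 10 accession responses, which share the same arrays. The responses of the anion channel genes SLAC1 and QUAC1 were the most alike by Pearson r (0.74), with a Spearman rho of 0.55. Both were lowest in Bur-0, and Ts-1 and SQ-8 were high for both, while CIBC-17 was high for SLAC1 alone. Without SQ-8 and CIBC-17, the accessions farthest from the median of SLAC1, r was 0.89, but without Ts-1 and Bur-0, those farthest from the median of QUAC1, it fell to 0.48, so the value rested in part on these 2. Over the 20 group means r was 0.70, and within groups, over 59 arrays, it was 0.24. QUAC1 and MYB60 gave r = 0.58 (rho = 0.66) over responses, 0.29 without Ts-1 and Col, those farthest from the median of MYB60, and 0.62 over group means. KAT1 and QUAC1 gave -0.62 (rho = -0.30), a value that rested on Bur-0 and HR-5, since without them r was 0.16. The inward channel genes KAT1 and KAT2 were hardly related over responses (r = 0.097, rho = 0.14).

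**Figure D4:**
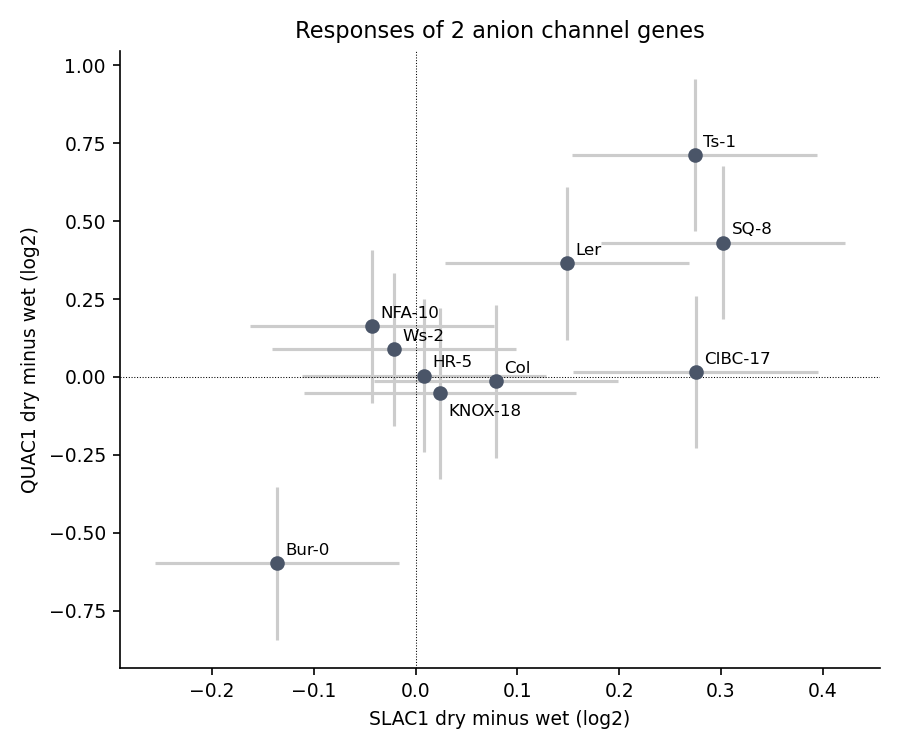
Response to drying (dry minus wet, log2) of SLAC1 (horizontal axis) and QUAC1 (vertical axis) in each accession; grey bars are standard errors of the limma fit and dotted lines mark 0. Bur-0 is lowest for both genes, Ts-1, SQ-8 and Ler are high for both, and the error bars of most accessions overlap.

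For each gene the 3 loci with the most similar profile over the 20 group means were listed, by Pearson r over these means. KAT1 was nearest to ASIL2 (r = 0.80), a trihelix transcription factor gene, AT3G46960 (0.80) and AT5G10350 (0.79), and KAT2 to TRS120 (0.81), which encodes a subunit of a vesicle tethering complex, AT1G33612 (0.80) and AT3G29330 (0.77). GORK had the closest of all, AT5G10540 (0.89), followed by FZL (0.83), a gene for a chloroplast membrane protein, and UMAMIT13 (0.82), of an amino acid transporter family. SLAC1 was nearest to AT1G65560 (0.80), AT1G61610 (0.79) and AT3G49130 (0.78). QUAC1 was nearest to sks9 (0.80), a gene of the SKU5-similar family, AT3G62820 (0.80) and AT1G54050 (0.79). Within groups, over 59 arrays, r was 0.75 for sks9 and 0.30 and 0.26 for the other loci of QUAC1. MYB60 was nearest to MUTE (0.81), which encodes a bHLH factor of the stomatal lineage, CYP86A8 (0.79), a fatty acid hydroxylase gene, and CYCA2;3 (0.79), an A2-type cyclin gene. Within groups these 3 gave 0.22, 0.42 and 0.42. The loci named for KAT1 gave from -0.033 to 0.075 within groups, those for KAT2 from -0.039 to 0.14, those for GORK from 0.31 to 0.44 and those for SLAC1 from -0.21 to 0.42. Such values are the highest among all other loci, which share the arrays, and would be high for any profile.

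Related and partner genes show what else moved around the channels. Of 5 other Shaker channel genes measured, 0 rose and 1 fell, near the 15.5% and 13.8% of all loci: AKT1, an inward potassium channel best known from roots and also present in guard cells, fell by 0.38 ± 0.08 (adjusted p = 0.000321) and had a lower dry mean in all 10 accessions, as did 5.09% of all loci. The regulatory subunit gene KC1 differed by -0.12 ± 0.05 (adjusted p = 0.0587), the xylem-loading outward channel gene SKOR by -0.030 and the pollen channel gene SPIK by 0.013. The list median was -0.030. Of 5 other genes of the SLAC and ALMT families, 0 rose and 1 fell, again near those shares of all loci. The one that fell was SLAH1, a homologue of SLAC1 (-0.097 ± 0.033, adjusted p = 0.0228). The vacuolar channel gene ALMT9 (0.19 ± 0.07, adjusted p = 0.0501), the guard cell anion channel gene SLAH3 (0.15 ± 0.07, adjusted p = 0.0818) and ALMT6 (0.038) did not pass. ALMT9 did pass without Ler wet 3 (0.19, adjusted p = 0.0438) or without Col wet 3 (0.19, adjusted p = 0.0443), and SLAH3 with the clock score as a covariate (0.17, adjusted p = 0.0358), as did KC1 (-0.13, adjusted p = 0.0455). The list median was 0.038.

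Among 15 pumps and carriers 3 rose, 2 fell and 10 did not pass, with a median of 0.006, where 15.5% of all loci rose and 13.8% fell. Without Ler wet 3 the count was 5 higher and 2 lower, with KUP6 (0.18, adjusted p = 0.016) and CLC-A (0.48, adjusted p = 0.0167) added. NHX2, a vacuolar potassium exchanger gene, rose by 0.58 ± 0.10 (adjusted p = 8.72e-06), KUP8, a potassium transporter gene, by 0.47 ± 0.09 (adjusted p = 9.71e-05) and TPC1, the slow vacuolar cation channel gene, by 0.18 ± 0.05 (adjusted p = 0.0066). CLC-C, a vacuolar anion transporter gene, fell by 0.35 ± 0.10 (adjusted p = 0.00467). Among 23 regulators of the channels 8 rose, 3 fell and 12 did not pass, with a median of 0.052, beside the same shares of all loci. Of the clade A phosphatase genes, whose proteins hold OST1 and SLAC1 inactive until ABA is perceived, 3 of the 4 in the list rose, PP2CA by 1.31 ± 0.08 (adjusted p = 1.12e-15), ABI2 by 0.54 ± 0.07 (3.13e-07) and ABI1 by 0.41 ± 0.08 (5.92e-05), while HAB1, named after its value was seen, differed by 0.052 ± 0.157 (0.848). CBL9, a calcium sensor gene, fell by 0.50 ± 0.06 (1.34e-08). The kinase gene OST1, named here after its value was seen, rose by 0.29 ± 0.10 (adjusted p = 0.0202).

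Of 6 MYB genes, the relatives of MYB60 in its subgroup (MYB30, MYB31, MYB94 and MYB96) and the guard cell genes MYB44 and MYB61, 0 rose and 4 fell, with a median of -0.18. MYB44, an ABA-responsive gene tied to stomatal closure, fell by 0.46 ± 0.08 (adjusted p = 1.24e-05), MYB31 by 0.36 ± 0.08 (adjusted p = 0.000532), MYB94, a regulator of wax synthesis, by 0.18 ± 0.05 (adjusted p = 0.00413) and MYB61 by 0.15 ± 0.04 (adjusted p = 0.00435). Their count stands beside the 13.8% of all loci that fell.

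Markers of guard cells and of other leaf cells were read beside these values. Of 6 guard cell markers 1 rose, the MAP kinase gene MPK12 (0.38 ± 0.06, adjusted p = 1.26e-05), and 1 fell, AT1G22690, at -2.21 ± 0.19 (adjusted p = 1.65e-11). This locus was listed as the guard cell marker GC1, a name that the gene table used here does not give. These counts are near the shares of all loci, 15.5% higher and 13.8% lower. The remaining 4 did not pass: the lineage factor gene FAMA (0.042 ± 0.047), the maturation factor gene SCAP1 (0.006 ± 0.030), the kinase gene HT1 (0.015 ± 0.031) and the blue light kinase gene BLUS1 (0.027 ± 0.028). The median difference of the 6 was 0.021. Their mean per array ran from 4.78 to 5.64 in wet and from 4.41 to 5.39 in dry leaves, and it includes AT1G22690, which averaged 8.37 in wet and 6.16 in dry leaves. Of 7 stomatal lineage markers 1 rose, EPF1 (0.17 ± 0.05, adjusted p = 0.00318), a peptide that limits stomatal number, and 0 fell, again near the share of all loci that rose, with mean levels from 4.07 to 4.92 in wet and from 4.13 to 4.88 in dry leaves.

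Of 10 epidermal and trichome markers 5 fell and 1 rose, with a median of -0.17, where 13.8% of all loci fell and 15.5% rose. The wax synthesis gene CER6 fell by 0.93 ± 0.14, the wax exporter gene CER5 by 0.58 ± 0.10, and the epidermal homeodomain genes ATML1 and PDF2 by 0.46 ± 0.08 and 0.42 ± 0.10. The member that rose was the trichome patterning gene TRY (0.36 ± 0.13, adjusted p = 0.0373), and GL2 (0.23, adjusted p = 0.0621) and PDF1 (0.29, adjusted p = 0.27) did not pass, all 3 being named after their values were seen. The mean of the list per array ran from 6.35 to 7.30 in wet and from 6.05 to 7.22 in dry leaves. Of 6 vascular markers 2 rose and 1 fell, beside the same 15.5% and 13.8% of all loci. The phloem genes AHA3 and APL rose by 0.84 ± 0.15 and 0.50 ± 0.09 and the xylem protease gene XCP1 fell by 0.23 ± 0.05, with mean levels from 6.34 to 7.43 in wet and from 6.43 to 7.91 in dry leaves. The mesophyll marker measured, RCA, differed by 0.066 ± 0.053, and 0 of 5 root markers passed. The lowest value of the whole table was 3.07, so no marker could read 0, and these levels do not show detection. The part of these shifts in the rises of KAT1 and GORK was not tested.

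**Figure D5:**
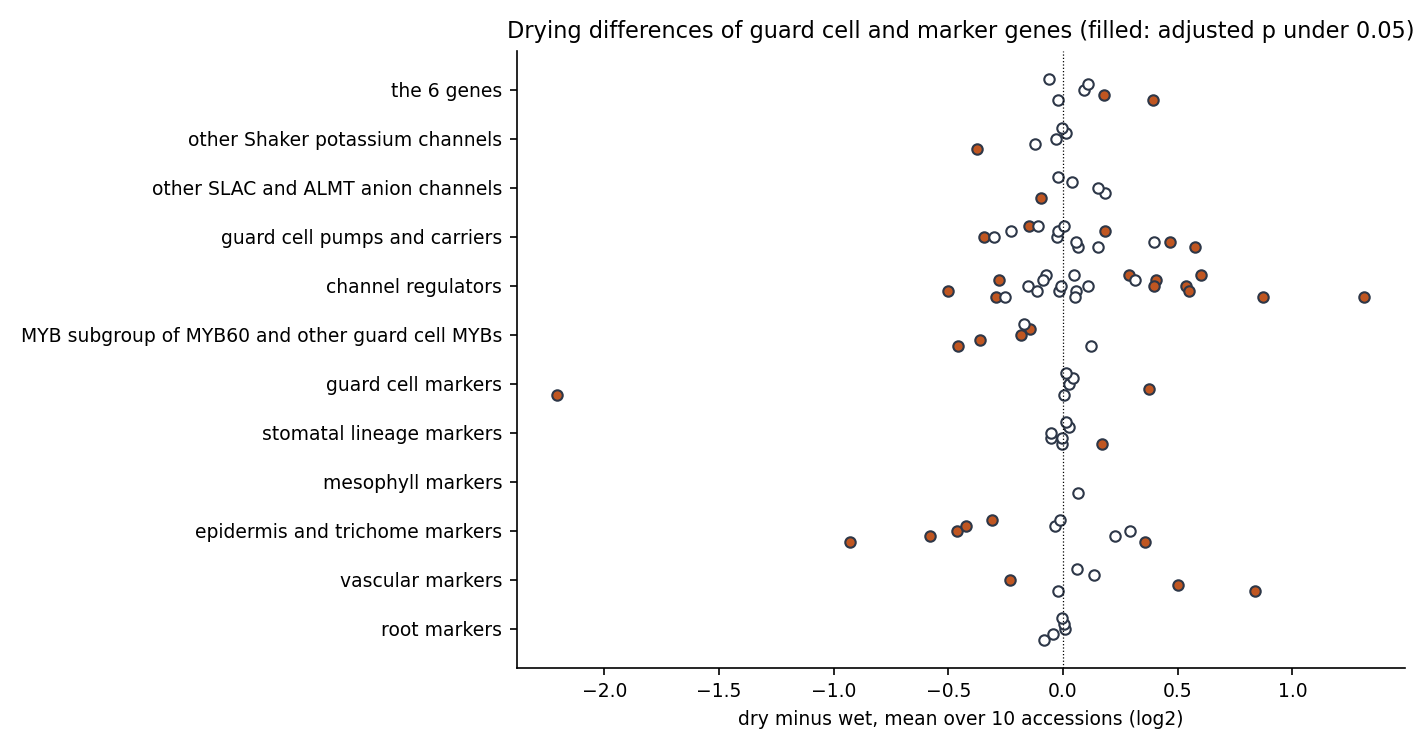
Dry minus wet, as the mean over 10 accessions on the log2 scale (horizontal axis), of the 6 genes and of the genes in each list (rows); every circle is 1 gene, filled where the limma adjusted p was under 0.05, and vertical offsets only separate points. Of the 6 genes KAT1 (0.39) and GORK (0.18) are filled, and the most distant points are AT1G22690 among guard cell markers (-2.21) and PP2CA among channel regulators (1.31).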

How the data were processed

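Leaf cRNA of 59 samples was hybridised to arrays, and the deposited table holds log2 values per locus as the authors processed them. MAS5 and RMA are named, per the submitters' processing notes, without saying which of them made the values. Platform, probes and genome build are not given in these sources, so no coordinates are printed. Names come from a RefSeq gene table (TAIR10.1) that listed 20546 of the 20728 loci.

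A mean for each of 20 groups was fitted to every locus with limma 3.58.1 in R 4.3.3, with 39 residual degrees of freedom and 1.96 prior degrees of freedom, and contrasts were adjusted by Benjamini-Hochberg over the whole table. The pipeline was tested on simulated data. Accession differences of a gene were also put to an exact sign-flip test (1024 patterns). Limma p-values measure the spread among what the labels call biological replicates, and the number of arrays limits the precision. The main fit held no term for replicate number, which called 30.0% of all loci. The spread within groups can therefore include shifts shared by arrays of the same number. Sign-flip p-values instead measure the spread of the differences among accessions.

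The named genes were the 6 genes, for each the 3 loci of highest r over group means, and from each list up to 4 genes of smallest adjusted p plus every guard cell marker. The genes and lists were chosen with earlier results of these data known. Alternatives were other scalings, filters, variance models, array weights, a replicate block, a clock covariate and arrays, accessions or replicate numbers left out.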

Additional observations from a re-analysis of the deposited data

Results flagged for a closer look

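The response of KAT1 to drying in Bur-0 drew attention because it differed from the response in the other accessions by a test of that difference: it exceeded the mean of the other 9 by 1.32 ± 0.29 on the log2 scale (limma adjusted p = 0.0325). All 3 dry Bur-0 arrays lay above all 3 wet ones, as was so in 9.09% of all pairs of locus and accession. The difference is a contrast of 1 accession out of 10 and 1 gene out of 6, and it was lost when any 1 of 4 of the 6 Bur-0 arrays was left out. Its p-value was adjusted over loci but not over the 10 accessions. The limma F test over all 10 responses did not pass for KAT1 (adjusted p = 0.247).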

How the results depend on the processing

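No result that passed the threshold changed sign under any alternative run. Counted over genes, comparisons and settings, 5062 values kept their side of the threshold when 1 array or accession was left out, 18 were lost and 13 gained. Most of these values belong to differences within an accession that did not pass, and most omitted arrays came from other accessions. The count therefore does not measure how firm the calls are. Under the other settings 660 were kept, 7 lost and 6 gained. Within replicate numbers 1, 2 and 3 alone KAT1 drying gave 0.26, 0.52 and 0.44 and GORK drying 0.022, 0.24 and 0.29, none of them past the threshold in these fits on fewer arrays. SLAC1 drying passed with quantile normalization (0.095), with the replicate block (0.093), without Bur-0 (0.12) and without HR-5 (0.10), the last 2 being alternatives chosen after seeing the data, as were the clock covariate and all alternatives for the gene lists. With 1 array left out GORK drying ranged from 0.13 to 0.23 and SLAC1 drying from 0.080 to 0.10, and the latter passed without NFA-10 wet 1, Ts-1 dry 1, HR-5 dry 1, Ts-1 wet 2, HR-5 wet 2, SQ-8 wet 2 or Ler dry 2. The accession F test of GORK gave adjusted p from 0.0213 (without KNOX-18 dry 1, the only one to pass) to 0.468. With 1 accession left out, the exact sign-flip p ranged from 0.043 to 0.203 for SLAC1 and from 0.043 to 0.688 for QUAC1, in both cases lowest without Bur-0. Array weights brought the interaction of KAT1 (adjusted p = 0.00855) and the accession tests of GORK (0.00874) and SLAC1 (0.0177) past the threshold, and KAT1 in HR-5 to 0.997 (adjusted p = 0.00211). Their estimation stopped short of convergence, with weights from 0.225 (Ler wet 3) to 31.7 (Ler wet 2). Without Ler wet 3 or Col wet 3 the calls of KAT1 and GORK for drying held (KAT1 at 0.38 and 0.37, GORK at 0.20 and 0.20). Replicate numbers were not taken as pairs in the main fit, and the replicate block was run as an alternative. Deviations of wet and dry arrays of the same number did correlate over 0.1 in 24 of 29 pairs (from -0.20 to 0.56, median 0.28). With the replicate block KAT1 drying was 0.39 and GORK drying 0.18, and apart from that of SLAC1 no call of the drying, interaction or accession tests changed. Setting array medians equal or quantile normalization moved the median of all loci to -0.0121 and -0.00352, and no call among the list genes was lost or changed sign under these, the clock covariate or the omission of either array. Genes that also passed with the clock covariate included ABCG22 (-0.17), AT3G01490 (-0.37), MYB30 (-0.23) and GL2 (0.28), and with quantile normalization CPK23 (0.058) did. The order of accession means without Ler wet 3 was also added after seeing the data. With no detection calls, the limit that background sets for the 6 genes was not tested.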
